A study of Mus musculus with 12 samples.

Results

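The core loop of the circadian clock was followed in mouse hearts through 10 genes, taken by name from the textbook loop and all listed in the deposited gene table of 17379 genes. The activators are Arntl (also called Bmal1), Clock and Npas2. The PER and CRY repressors are Per1, Per2, Per3, Cry1 and Cry2, and the REV-ERB repressors are Nr1d1 and Nr1d2. All 10 members passed the filter on low counts, which kept 13849 genes for testing.

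Hearts of C57BL mice were dissected at 6 months of age, and polyadenylated RNA was sequenced in 12 libraries, 3 per genotype. Compound hearts were heterozygous for the S96A variant of HRC, the calcium-buffering protein, rich in histidine, in the sarcoplasmic reticulum, and homozygous for MYBPC3Δ25bp, a 25 bp deletion in the gene of cardiac myosin-binding protein C. HRC S96A hearts carried the heterozygous HRC variant alone, MYBPC3Δ25bp hearts carried the deletion alone, and nontransgenic hearts carried neither. The 3 compound and 3 HRC S96A hearts were all from females, whereas the MYBPC3Δ25bp and nontransgenic groups each held 2 males (replicates 1 and 2) and 1 female (replicate 3). The mice were kept under a daily light and dark cycle, and the time of day at dissection is not stated in the labels, so a difference in genotype and a difference in the hour of dissection cannot be told apart.

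As background, ARNTL pairs with CLOCK or NPAS2 and the pair drives transcription from E-box sites, including those of the Per, Cry and Nr1d genes. PER and CRY proteins return to the nucleus and repress the pair, while the REV-ERB proteins repress Arntl, Clock, Npas2 and Cry1 at ROR response elements. In rodent hearts Arntl therefore peaks at about the opposite time of day from Per2, Per3 and the REV-ERB genes, and the cardiomyocyte clock is known for its part in daily rhythms of metabolism and electrical activity.

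Promoter sequences show where this wiring can be read in the genome. RefSeq promoter windows (GRCm38.p6, from 250 bases before to 50 after a start site) matched 9 of the 10 members, and Per2 was not matched. The windows were searched on both strands for the E-box CACGTG, the E-prime box CACGTT or AACGTG, the D-box TTATGTAA, TTACATAA or TTACGTAA, and the ROR response element, AAN directly followed by TAGGTNA or the reverse complement. Of all 32851 promoter windows, 7.15% held the E-box, 4.69% the E-prime box, 1.06% a D-box and 0.682% the ROR response element. The stretches below are those members' matches, with the matched letters in capitals.
Arntl, first ROR response element, chr7:113207492-113207521, plus strand: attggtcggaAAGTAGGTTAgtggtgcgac
Arntl, second ROR response element, chr7:113207528-113207557, plus strand: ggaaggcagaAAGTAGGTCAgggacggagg
Per1, E-box, chr11:69098753-69098818, plus strand: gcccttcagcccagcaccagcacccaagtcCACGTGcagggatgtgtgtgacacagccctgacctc
Cry1, E-box, chr10:85185079-85185144, minus strand: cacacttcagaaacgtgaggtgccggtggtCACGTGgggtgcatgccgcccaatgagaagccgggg
Cry2, E-prime box, chr2:92434203-92434262, minus strand: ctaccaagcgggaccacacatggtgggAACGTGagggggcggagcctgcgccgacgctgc
Nr1d1, E-prime box, chr11:98775378-98775432, minus strand: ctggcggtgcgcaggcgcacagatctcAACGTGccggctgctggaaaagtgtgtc
Per3, upstream D-box, chr4:151044837-151044896, minus strand: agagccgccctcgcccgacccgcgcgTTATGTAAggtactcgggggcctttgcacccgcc
Per3, downstream D-box, chr4:151044790-151044849, minus strand: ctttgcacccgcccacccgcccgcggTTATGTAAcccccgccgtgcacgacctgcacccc

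Both ROR response elements lie beside the Arntl start sites, one beginning 9 bases before a RefSeq start and the other 27 bases after it. Arntl, the gene whose product opens the loop, was the only one of the 9 matched members with this motif in its window. The E-box of Per1 begins 166 bases before its start site and that of Cry1 begins 60 bases before its own, and Cry1 also holds an E-prime box 79 bases before the start, visible in lower case in the stretch above as aacgtg. The D-boxes of Per3 begin 205 and 158 bases before its start site. The windows of Clock, Npas2 and Nr1d2 held none of these motifs, which says only that these letters are not in those windows.

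The deposited table places the members on 8 chromosomes of GRCm38.p6. The activators Arntl (gene ID 11865), Clock (12753) and Npas2 (18143) span chr7:113178470-113314126, chr5:76209591-76305527 and chr1:39193715-39367856. Per1 (18626), Per2 (18627) and Per3 (18628) span chr11:69095114-69110001, chr1:91415977-91459402 and chr4:150997018-151044723. Cry1 (12952) and Cry2 (12953) span chr10:85119123-85185284 and chr2:92403646-92434214, and Nr1d1 (217166) and Nr1d2 (353187) span chr11:98767865-98775377 and chr14:18196622-18239106. Nr1d1 shares 263 of its 3077 exonic bases with Thra, which lies on the opposite strand, and Cry2 shares 295 of 6320 with D930015M05Rik. Whether strand was used in counting is not given, so reads from the shared bases cannot be told apart. The deposited strand of Clock and Per3 is plus, whereas RefSeq places both on the minus strand, and what this means for their counts was not tested.

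The libraries held 15615182 to 20581197 counts in genes. Markers of heart muscle cells summed to between 82591 and 113537 CPM (counts per 1000000 library counts) in all libraries, with all 9 listed markers present. The 8 listed markers of atrial muscle summed to 242 to 560 CPM in compound hearts and to 8644, 2961 and 296 CPM in the 3 HRC S96A hearts, against 3485 to 6273 CPM in MYBPC3Δ25bp hearts and 3560 to 8814 CPM in nontransgenic hearts. B cell markers stood out in MYBPC3Δ25bp replicate 2 at 75.7 CPM and in nontransgenic replicate 2 at 43.1 CPM. HRC S96A replicates 2 and 3 stood apart from every other library for the clock genes Dbp, Ciart and Nfil3, as described further on. Fibroblast markers summed to 1025 to 1086 CPM in compound hearts, against 1256 to 1407 CPM in nontransgenic hearts, and macrophage markers to 158 to 170 CPM in compound hearts, against 175 to 224 CPM in nontransgenic hearts, so these groups did not overlap. In HRC S96A replicates 1, 2 and 3 fibroblast markers summed to 1958, 1244 and 1028 CPM and macrophage markers to 275, 153 and 141 CPM, so replicate 1 lay above and replicates 2 and 3 below all nontransgenic hearts. Fat markers summed to 228 CPM in nontransgenic replicate 2 and to 1.01 to 56.2 CPM in the other libraries. The part of these other cell types in the clock results was not tested. In such bulk RNA, fewer cells of a type and less RNA per cell cannot be told apart.

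Per unit of transcript length, the repressor Nr1d1 was by far the most abundant member, and the activators Arntl and Npas2 the least. The authors' TPM (transcripts per 1000000, which accounts for transcript length) averaged 258 ± 96.5 in compound hearts, 221 ± 54.6 in HRC S96A hearts, 218 ± 24.2 in MYBPC3Δ25bp hearts and 170 ± 12.6 in nontransgenic hearts for Nr1d1 (SD, n = 3 each). Over all 12 libraries the mean order ran Nr1d1, Nr1d2, Per1, Cry2, Per3, Clock, Per2, Cry1, Arntl and Npas2, with means of 217 TPM for Nr1d1, 43.95 TPM for Nr1d2 and 1.89 TPM for Npas2. The ranges of Nr1d1 and Nr1d2 did not meet, at 151 to 337 TPM against 24.2 to 65.5 TPM, whereas those of every later pair of neighbours overlapped. Arntl ranked 6 of 10 by mean TPM in HRC S96A hearts and 9 of 10 in each of the other groups.

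**Figure D1:**
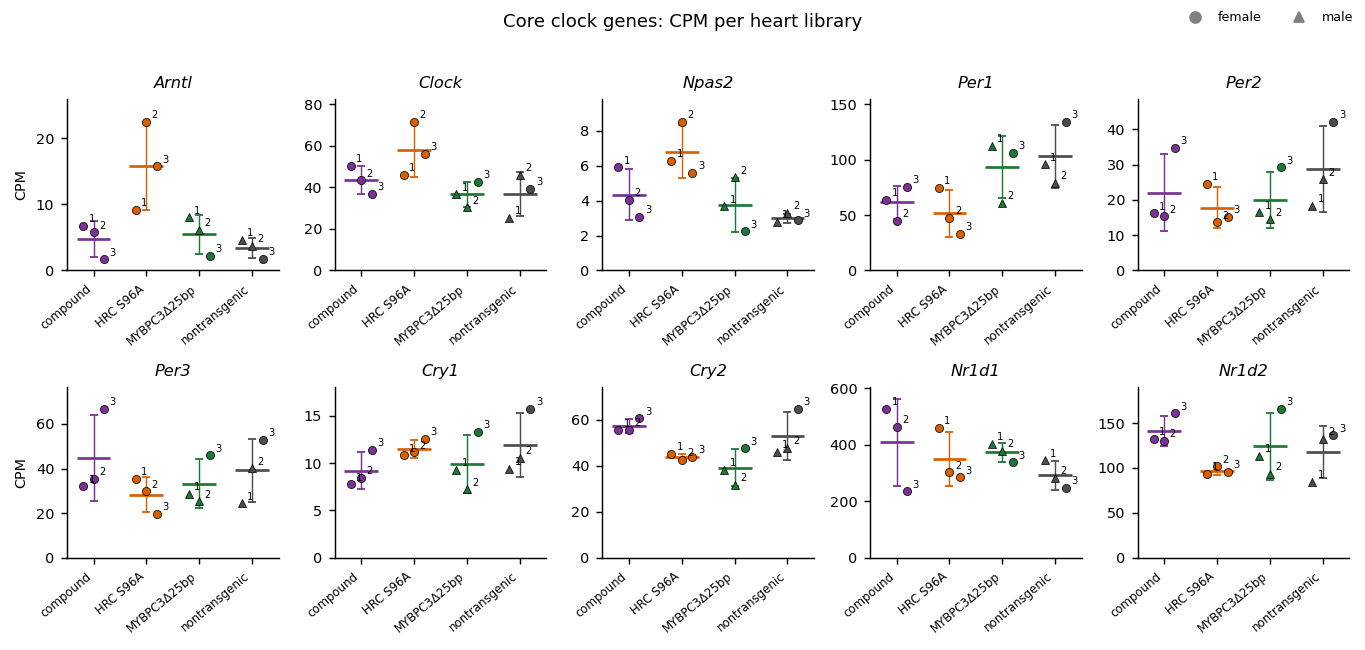
Level of each of the 10 members in CPM (y axis, linear from 0) in each of the 12 libraries (points), by genotype from compound to nontransgenic, with group mean and SD (n = 3). Arntl sits highest in the 3 HRC S96A hearts, at 9.15 to 22.5 CPM, against 1.68 to 8.02 CPM in the 9 others.

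Among the activators, Arntl moved most. Its levels were 6.75, 5.78 and 1.68 CPM in compound hearts (replicates 1 to 3), 9.15, 22.5 and 15.8 CPM in HRC S96A hearts, 8.02, 6.15 and 2.23 CPM in MYBPC3Δ25bp hearts, and 4.65, 3.70 and 1.75 CPM in nontransgenic hearts. Every HRC S96A heart lay above all 9 others, and in each of the other groups replicate 3 was lowest. How many of all genes part these 3 hearts from the 9 others was not counted. Npas2, the paralogue of Clock, had 5.92, 4.04 and 3.08 CPM in compound hearts, 6.28, 8.53 and 5.60 CPM in HRC S96A hearts, 3.66, 5.33 and 2.23 CPM in MYBPC3Δ25bp hearts, and 2.80, 3.29 and 2.87 CPM in nontransgenic hearts. The HRC S96A and nontransgenic hearts did not overlap, although compound replicate 1 lay within the HRC S96A range. Clock, the usual partner of ARNTL, had 50.4, 43.3 and 36.9 CPM in compound hearts, 45.9, 71.6 and 56.0 CPM in HRC S96A hearts, 36.6, 30.4 and 42.6 CPM in MYBPC3Δ25bp hearts, and 25.2, 46.1 and 39.2 CPM in nontransgenic hearts. HRC S96A replicates 2 and 3 were the highest of the 12, and replicate 1 lay within the nontransgenic range.

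The Period genes were on average lower in HRC S96A than in nontransgenic hearts. Per1, which acute signals can also induce, had 64.0, 45.1 and 75.3 CPM in compound hearts, 74.5, 47.3 and 32.9 CPM in HRC S96A hearts, 112, 61.0 and 106 CPM in MYBPC3Δ25bp hearts, and 95.8, 79.4 and 135 CPM in nontransgenic hearts. All compound and all HRC S96A hearts lay below all nontransgenic hearts. Per2, a scaffold of the repressor complex, had 16.2, 15.3 and 34.7 CPM in compound hearts, 24.5, 13.7 and 15.2 CPM in HRC S96A hearts, 16.4, 14.5 and 29.2 CPM in MYBPC3Δ25bp hearts, and 18.3, 25.8 and 42.2 CPM in nontransgenic hearts. Per3, the Period gene that the loop can run without, had 31.96, 35.4 and 66.8 CPM in compound hearts, 35.4, 29.8 and 19.7 CPM in HRC S96A hearts, 28.6, 25.2 and 45.9 CPM in MYBPC3Δ25bp hearts, and 24.5, 40.1 and 53.0 CPM in nontransgenic hearts. For Per2 and Per3 all groups overlapped, and replicate 3 was the highest in the compound, MYBPC3Δ25bp and nontransgenic groups, the same libraries in which Arntl was lowest.

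The cryptochromes, which bind and silence the ARNTL and CLOCK pair, were steadier. Cry2 had 55.4, 55.5 and 60.5 CPM in compound hearts, 45.02, 42.6 and 43.8 CPM in HRC S96A hearts, 38.1, 31.6 and 47.6 CPM in MYBPC3Δ25bp hearts, and 46.0, 47.7 and 64.6 CPM in nontransgenic hearts. The HRC S96A hearts lay just below all nontransgenic hearts and the compound hearts lay above both single-variant groups. Cry1 spanned 7.74 to 11.4 CPM in compound hearts, 10.8 to 12.6 CPM in HRC S96A hearts, 7.23 to 13.3 CPM in MYBPC3Δ25bp hearts and 9.41 to 15.7 CPM in nontransgenic hearts, so all pairs of groups overlapped.

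The 2 REV-ERB genes did not move alike. Nr1d1 had 527, 463 and 235 CPM in compound hearts, 460, 303 and 284 CPM in HRC S96A hearts, 403.5, 379 and 338 CPM in MYBPC3Δ25bp hearts, and 345, 282 and 247 CPM in nontransgenic hearts. The compound group alone held both the highest and the lowest library of the 12. Nr1d2 had 132, 130 and 161 CPM in compound hearts, 93.2, 102 and 95.8 CPM in HRC S96A hearts, 113, 93.4 and 166 CPM in MYBPC3Δ25bp hearts, and 84.3, 133 and 136 CPM in nontransgenic hearts. The HRC S96A hearts were tight and lay below all compound hearts, but within the nontransgenic range.

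The spread within groups was itself uneven among the members. The SD of log2 CPM within groups was 0.86 for Arntl and 0.20 for Cry2, with a median of 0.26 over all 13849 tested genes. After the group and sex terms were fitted, the biological coefficient of variation was 36.4% for Arntl and 11.1% for Cry2, with a median of 17.2%. From the lowest to the highest library, Arntl spanned 13.4-fold and Nr1d2 1.97-fold in CPM.

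The HRC variant alone was asked about by setting HRC S96A hearts against nontransgenic hearts. Arntl and Npas2 were higher and Per1, Per2, Per3, Cry2 and Nr1d2 lower in HRC S96A hearts at an unadjusted p under 0.05, which makes 7 of 10 members. In the same comparison 6.23% of all tested genes reached that level, 3.29% with higher and 2.95% with lower values. None of the 10 passed after Benjamini-Hochberg adjustment over all genes in edgeR's quasi-likelihood test, where 0% of genes passed. DESeq2 called 0.181% of genes, 25 in number, and Arntl and Cry2 were among them. Arntl and Npas2 were higher in every HRC S96A heart, as were 4.18% of all genes, and Per1 and Cry2 lower in every one, as were 3.76%. The median log2 difference was -0.51 over the 10 members and 0.00 over all tested genes. Most of the members are repressors, so this median is no measure of the loop as a whole.

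With the sex of the mouse as a term, the log2 difference of HRC S96A over nontransgenic hearts was 3.32 for Arntl (SE 0.59, edgeR adjusted p = 0.224, DESeq2 adjusted p = 1.95e-05). It was 1.52 for Npas2 (SE 0.39, edgeR adjusted p = 0.605). For Clock it was 0.49 (SE 0.27) and missed the unadjusted threshold. On the repressor side it was -1.28 for Per1 (SE 0.36), -1.24 for Per2 (SE 0.37) and -0.92 for Per3 (SE 0.35), with edgeR adjusted p-values of 0.605, 0.635 and 0.728. Cry2 differed by -0.55 (SE 0.13), with an adjusted p of 0.569 in edgeR and 0.0282 in DESeq2. Nr1d2 differed by -0.61 (SE 0.20, edgeR adjusted p = 0.679), while Cry1 at -0.46 (SE 0.22) and Nr1d1 at 0.45 (SE 0.33) missed the unadjusted threshold.

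These sizes rest in part on the sex term, which 1 female in each of the nontransgenic and MYBPC3Δ25bp groups sets. For males over females the term was 1.46 log2 for Arntl (SE 0.51), -0.92 for Per2 (SE 0.32) and -0.46 for Cry2 (SE 0.11), with edgeR adjusted p-values of 0.312, 0.312 and 0.300. In the nontransgenic and MYBPC3Δ25bp groups the only female is replicate 3. Sex and anything else particular to replicate 3 therefore cannot be told apart there. The 3 compound hearts, all female, had 6.75, 5.78 and 1.68 CPM of Arntl. Of these, replicates 1 and 2 lay within the range of the males, 3.70 to 8.02 CPM. Without the sex term the HRC S96A difference was 2.24 for Arntl, 0.65 for Clock and 1.19 for Npas2. It was -1.0 for Per1, -0.69 for Per2, -0.47 for Per3, -0.27 for Cry2 and -0.28 for Nr1d2. Without that term 4 members reached an unadjusted p under 0.05, as did 701 of all 13849 genes. The 4 members were Arntl, Npas2, Per1 and, newly, Clock, while Per2, Per3, Cry2 and Nr1d2 missed it with unadjusted p-values of 0.106 to 0.208 in edgeR. Every member kept its direction. Among females alone, which leaves 1 nontransgenic heart, the Arntl difference was 3.17.

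HRC S96A replicates 2 and 3 carried part of the difference. Without both, the log2 difference of the remaining HRC S96A heart was 2.49 for Arntl, 1.38 for Npas2, 0.12 for Clock, -0.78 for Per1, -0.81 for Per2 and -0.63 for Per3. That lone heart is assumed to vary like the other groups. Leaving out nontransgenic replicate 3, the only female of its group, gave 2.18 for Npas2. The Clock difference was 0.30 without HRC S96A replicate 2, and that of Nr1d1 was 0.21 without HRC S96A replicate 1.

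**Figure D2:**
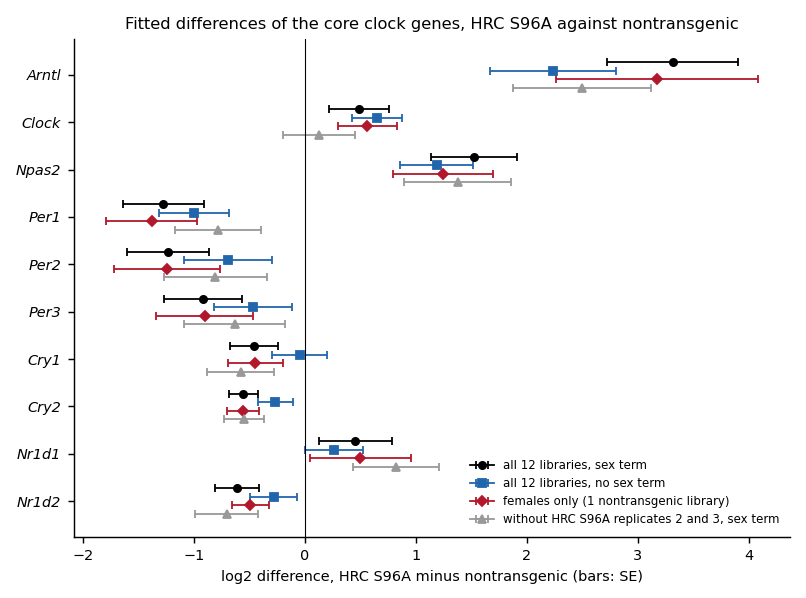
Log2 difference of HRC S96A over nontransgenic hearts (x axis) for the 10 members, with sex as a term, without it, in females only, and without HRC S96A replicates 2 and 3 (bars of 1 SE). The Arntl difference was 3.32, 2.24, 3.17 and 2.49 in these fits, in that order.

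Adding the deletion to the HRC variant, compound against HRC S96A hearts, is the one comparison in which both groups were all female. Per3, Cry2 and Nr1d2 were higher and Arntl lower in compound hearts at an unadjusted p under 0.05, against 6.3% of all tested genes, 2.38% higher and 3.91% lower. No gene passed in edgeR (0%), and DESeq2 called 0.31% of genes, 43 in number, with Arntl the single member among them. The Arntl log2 difference was -1.74 (SE 0.43, edgeR adjusted p = 0.559, DESeq2 adjusted p = 0.0242), and -0.92 without HRC S96A replicates 2 and 3. Arntl averaged 4.73 ± 2.69 CPM in compound hearts and 15.8 ± 6.67 CPM in HRC S96A hearts (SD, n = 3 each), and the groups did not overlap. The differences were 0.38 for Cry2 (SE 0.11), 0.54 for Nr1d2 (SE 0.17) and 0.66 for Per3 (SE 0.30), with edgeR adjusted p-values of 0.607, 0.667 and 0.780. Cry2 and Nr1d2 were higher in every compound heart, a separation that 6.2% of all genes showed in that direction, and Arntl lower in every one, which 6.22% of genes showed. Per3 rested on compound replicate 3, without which its difference was 0.25, and it was 0.36 without HRC S96A replicates 2 and 3.

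Both variants together, compound against nontransgenic hearts, gave 5 members at an unadjusted p under 0.05, with 6.36% of all genes at that level, 2.14% higher and 4.22% lower. No gene was called in edgeR (0%), and DESeq2 called 0.274% of genes and none of the 10. Arntl and Npas2 were the 2 higher members, by 1.58 (SE 0.57) and 0.88 (SE 0.38) on the log2 scale. Per1, Per2 and Cry1 were the 3 lower ones, by -1.03 (SE 0.37), -0.93 (SE 0.37) and -0.79 (SE 0.22). The edgeR adjusted p-values of these 5 lay between 0.614 and 0.756. Per1 was the only member whose groups did not overlap, at 45.1 to 75.3 CPM in compound hearts against 79.4 to 135 CPM in nontransgenic hearts, a separation that 10% of all genes showed in that direction and 8.79% in the other. Without the sex term only Per1 kept an unadjusted p under 0.05, with 1229 of all 13849 genes at that level, and the Arntl difference was 0.50. Leaving out compound replicate 3 gave -1.41 for Per2, leaving out nontransgenic replicate 3 gave 1.54 for Npas2, and leaving out compound replicate 1 gave 0.58 for Npas2.

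Atrial marker levels moved with this comparison, since all 3 compound hearts were low. With the atrial level as a term the Per1 difference between compound and nontransgenic hearts was -0.18 and that of Per2 was -0.27, against 1.11 for Arntl. For Per1 and Per2 the compound genotype and the atrial share of the tissue therefore cannot be told apart. Arntl too missed an unadjusted p under 0.05 with that term. Only 1 member, lower in compound hearts, reached it, among 548 of all 13849 genes. The HRC S96A hearts, of which replicate 3 lay below the nontransgenic range of that term, gave an Arntl difference of 3.10 with the same term.

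The deletion alone, MYBPC3Δ25bp against nontransgenic hearts, left nearly all of the loop within the spread between replicates. Cry2 was the 1 member at an unadjusted p under 0.05, with 8.16% of all genes at that level, 2.94% higher and 5.22% lower. It averaged 39.1 ± 8.0 CPM in MYBPC3Δ25bp hearts and 52.8 ± 10.3 CPM in nontransgenic hearts (SD, n = 3 each), a log2 difference of -0.43 (SE 0.11). Its adjusted p was 0.346 in edgeR, where 0% of genes passed, and 0.0262 in DESeq2, where 0.549% did, 76 in number. The 2 groups overlapped for every member, whereas 4.9% of all genes were higher and 5.5% lower in every MYBPC3Δ25bp heart. The other 9 differences ran from -0.52 for Per2 to 0.64 for Arntl.

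Adding the HRC variant to the deletion, compound against MYBPC3Δ25bp hearts, gave lower Per1 and Cry1 in compound hearts at an unadjusted p under 0.05, with 5.73% of all genes at that level, 2.34% higher and 3.39% lower. The log2 differences were -0.90 for Per1 (SE 0.38) and -0.52 for Cry1 (SE 0.22), both with an edgeR adjusted p of 0.862, and 0% of genes passed. DESeq2 called 0.0433% of genes and no member. Per1 had a difference of -0.08 with the atrial level as a term. Without the sex term Per1 differed by -0.60 and Cry1 by -0.12, both missing the unadjusted threshold. Cry2 was the 1 member past it, at 0.55 (edgeR adjusted p = 0.229), as were 2004 of all 13849 genes. Cry2 was higher in every compound heart, as were 11.5% of all genes, at 55.4 to 60.5 CPM in compound hearts against 31.6 to 47.6 CPM in MYBPC3Δ25bp hearts, although its fitted difference missed the unadjusted threshold with the sex term. The 8 members that missed it differed by -0.41 for Per2 up to 0.94 for Arntl.

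Whether the HRC variant acted on the loop alike with and without the deletion was tested as an interaction. Arntl and Cry2 were the 2 members at an unadjusted p under 0.05, with 8.54% of all genes at that level, 4.49% with positive and 4.05% with negative values. The HRC-linked log2 difference was larger in hearts without the deletion for Arntl, by an interaction of -2.38 (SE 0.62, edgeR adjusted p = 0.508), and -1.55 without HRC S96A replicates 2 and 3. DESeq2 gave no adjusted p for Arntl. For Cry2 the interaction was 0.81 (SE 0.15), with an adjusted p of 0.336 in edgeR, where 0% of genes passed, and 0.00018 in DESeq2, where 0.361% did. Cry2 averaged 57.1 ± 2.92 CPM in compound hearts, 43.8 ± 1.22 CPM in HRC S96A hearts, 39.1 ± 8.0 CPM in MYBPC3Δ25bp hearts and 52.8 ± 10.3 CPM in nontransgenic hearts (SD, n = 3 each), so both single-variant means were below those of the compound and nontransgenic groups. In a test of any difference among the 4 groups, 7 members reached an unadjusted p under 0.05 against 6.97% of all genes, led by Arntl at 0.000391, and DESeq2 called Arntl and Cry2 among 0.78% of genes.

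The authors' deposited table of comparisons was read for the same genes. It gives Arntl a log2 change of 2.23 in HRC S96A over nontransgenic hearts with a q-value of 0.000285, and of -1.73 in compound over HRC S96A hearts with a q-value of 0.0193. The authors' deposited table also gives Nr1d2 0.55 in compound over HRC S96A hearts (q-value 0.0169), Per1 -0.74 in compound over nontransgenic hearts (q-value 0.0454) and Cry2 0.56 in compound over MYBPC3Δ25bp hearts (q-value 0.0404). Its Arntl and Per1 values are near the differences without a sex term, 2.24 and -0.75. For MYBPC3Δ25bp over nontransgenic hearts the authors' deposited table has no member with a q-value under 0.05.

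Across the 12 hearts Arntl and Npas2 ran against the Period genes, Cry2 and Nr1d2. This is the known behaviour for which these genes were chosen and is given as description. It did not hold for the whole of each arm. Nr1d1 had r = 0.37 with Arntl and 0.36 with Npas2, and Clock had -0.04 with Per3, 0.12 with Cry2 and 0.12 with Nr1d2. On log2 CPM values Arntl correlated with Per2 at r = -0.83 (Spearman's rho -0.80), with Per3 at r = -0.78 (rho -0.69) and with Npas2 at r = 0.85 (rho 0.85). Leaving out the 2 hearts farthest from the median of Arntl, HRC S96A replicate 2 and compound replicate 3, gave -0.77 for Per2, -0.82 for Per3 and 0.80 for Npas2. Among the 8 females r was -0.87 for Per2, -0.89 for Per3 and 0.92 for Npas2. After each group's mean was taken away, the r with Per2 was -0.96. In the compound, MYBPC3Δ25bp and nontransgenic groups replicate 3 was lowest in Arntl and highest in Per2, and these hearts weigh on that r. In the MYBPC3Δ25bp and nontransgenic groups it was also the only female. Points of 1 group share a genotype, and both genes of a point share its library and depth.

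**Figure D3:**
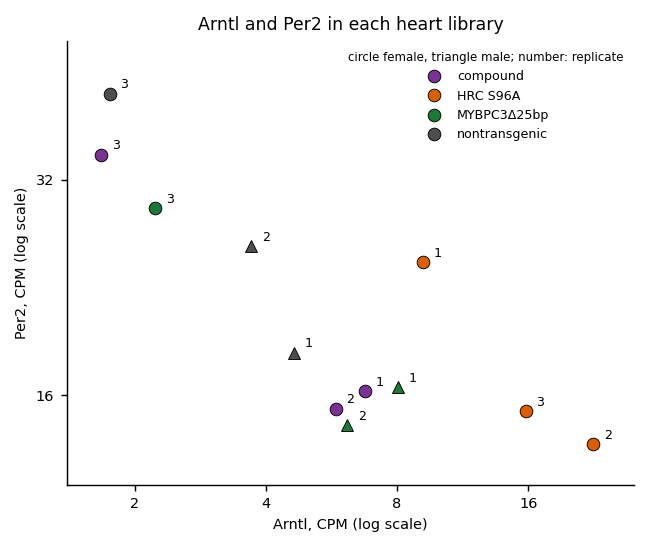
Arntl (x axis) against Per2 (y axis) in CPM, both axes logarithmic, 1 point per heart, coloured by genotype, with circles for females, triangles for males and replicate numbers. The HRC S96A replicates 2 and 3 lie at high Arntl and low Per2, and replicate 3 of the compound, MYBPC3Δ25bp and nontransgenic groups lies at low Arntl and high Per2.

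The ratio of Arntl to Per2 in TPM places each heart along this axis. It was 0.820, 0.726 and 0.0960 in compound hearts, 0.732, 3.29 and 2.06 in HRC S96A hearts, 0.937, 0.829 and 0.150 in MYBPC3Δ25bp hearts, and 0.516, 0.307 and 0.0841 in nontransgenic hearts. HRC S96A replicates 2 and 3 stood above every other heart, and HRC S96A replicate 1 lay among compound replicates 1 and 2 and MYBPC3Δ25bp replicates 1 and 2. The 3 lowest ratios belonged to replicate 3 of the compound, MYBPC3Δ25bp and nontransgenic groups, all females.

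Over all 12 hearts the other members followed Arntl less closely. Clock had r = 0.54, 0.29 without the 2 farthest hearts and 0.91 among the 8 females, so its relation to Arntl depended on which hearts were included. Per1 had r = -0.68, Nr1d2 -0.69, Cry2 -0.55 and Cry1 -0.30. After group means were taken away r was -0.84 for Per3, -0.79 for Cry1, -0.73 for Cry2, -0.66 for Nr1d2 and -0.53 for Per1, against 0.71 for Npas2, 0.55 for Nr1d1 and 0.10 for Clock. Nr1d1 had r = 0.37 with Arntl, of the opposite sign to Nr1d2, and its closest inverse partner among the members was Cry1 at r = -0.70. Nr1d1 was highest in compound replicates 1 and 2 and HRC S96A replicate 1, and lowest in compound replicate 3 and nontransgenic replicate 3.

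**Figure D4:**
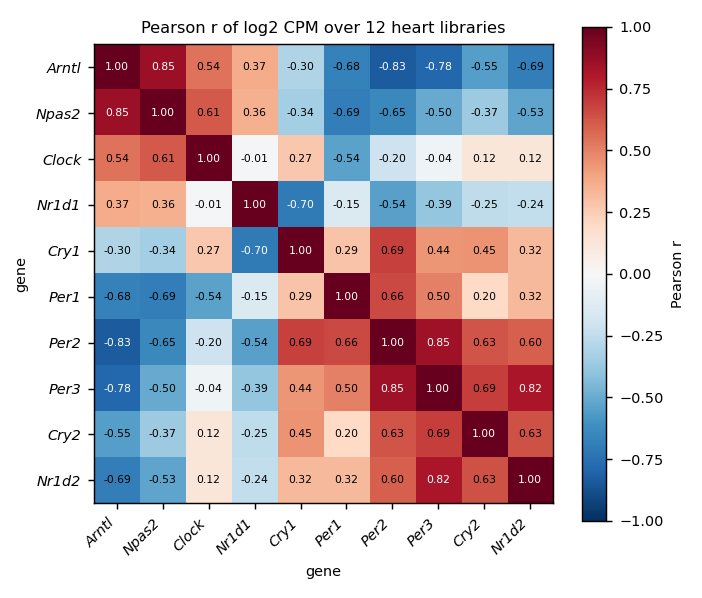
Pearson's r of log2 CPM between each pair of the 10 members over the 12 hearts (colour scale from -1 to 1, value in each cell). Arntl and Npas2 correlate at 0.85 and both run against the Period genes, while Nr1d1 runs against Cry1 at -0.70.

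Beyond the loop, 19 other clock genes were listed, covering the PAR bZIP output factors, accessory loop genes and enzymes of clock protein turnover, and all 19 were tested. In HRC S96A against nontransgenic hearts 4 were lower and 0 higher at an unadjusted p under 0.05, 21.1% of the list against 6.23% of all genes. They were the output factors Tef, at -1.08 log2 (SE 0.26), and Hlf, at -0.95 (SE 0.25), the repressor Bhlhe41, at -0.69 (SE 0.22), and the deubiquitinase Usp2, at -0.58 (SE 0.16). In compound against HRC S96A hearts the same 4 and Dbp were higher, by 0.66 for Tef, 0.48 for Hlf, 0.67 for Bhlhe41, 0.36 for Usp2 and 0.85 for Dbp, and 0 were lower, 26.3% of the list against 6.3% of all genes. The 2 comparisons share the HRC S96A hearts. In compound against MYBPC3Δ25bp hearts 1 was higher, Btrc at 0.33, and in the interaction 2 were, Tef at 1.02 and Bhlhe41 at 0.73. These are 5.26% and 10.5% of the list, near the 5.73% and 8.54% of all genes. In the comparisons of compound and of MYBPC3Δ25bp hearts with nontransgenic hearts 0 of the 19 reached that level. None of the 19 passed in edgeR with all libraries, and DESeq2 called Tef in HRC S96A against nontransgenic hearts (-1.08, adjusted p = 0.0367) and in the test of any group difference (adjusted p = 0.0489). With all libraries, the edgeR adjusted p in HRC S96A against nontransgenic hearts was 0.797 for Dbp and 0.890 for Ciart. In compound against HRC S96A hearts it was 0.788 and 0.835. Without HRC S96A replicate 1, edgeR called 2 of the 19, Dbp and Ciart. That heart lay within the range of the other genotypes for both genes. Leaving it out removes the 1 HRC S96A heart without low values of these genes. The calls of Dbp and Ciart are therefore no test of the genotype and describe HRC S96A replicates 2 and 3 only. Of all 14068 genes tested then, 8 were called in HRC S96A against nontransgenic hearts and 4 in compound against HRC S96A hearts. In HRC S96A against nontransgenic hearts Dbp then differed by -1.78 and Ciart by -2.62, against -0.997 and -1.28 with all libraries. In compound against HRC S96A hearts Dbp and Ciart then differed by 1.64 and 2.45, against 0.85 and 1.11 with all libraries. Both were also called then in the interaction, among 5 of all genes, and in the test of any group difference, among 4. The median log2 difference over the 19 was -0.09 in HRC S96A against nontransgenic hearts and 0.16 in compound against HRC S96A hearts, with -0.01 over all genes in the second comparison.

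**Figure D5:**
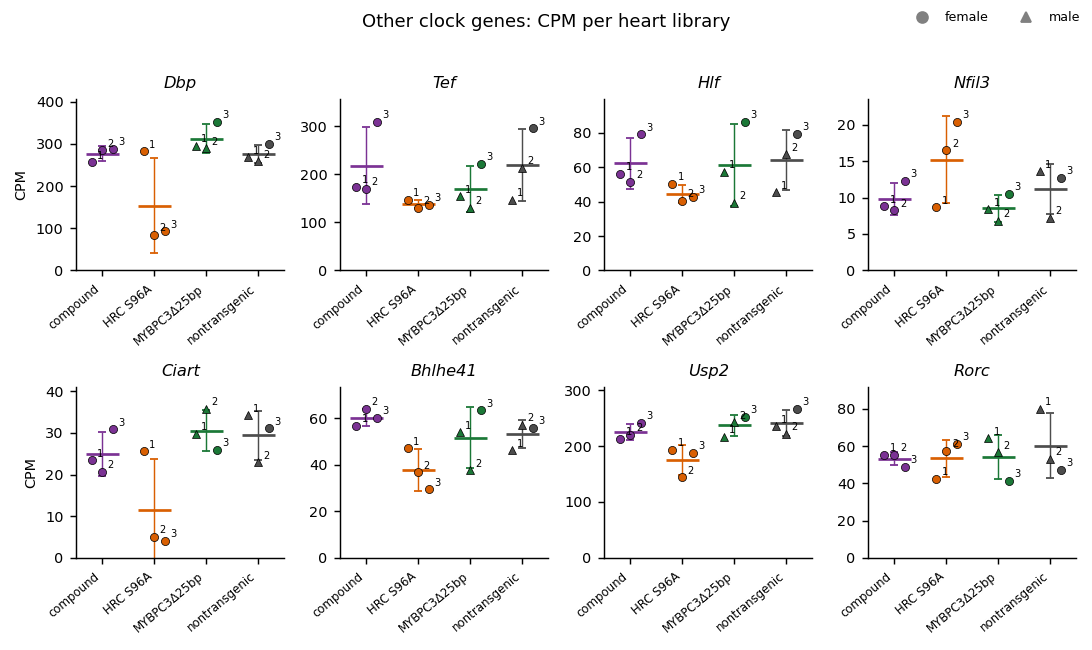
Levels in CPM (y axis, linear from 0) of clock genes outside the 10 members, by genotype and library (points), with group mean and SD (n = 3, bars end at 0). HRC S96A replicates 2 and 3 sit below every other heart for Dbp and Ciart.

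HRC S96A replicates 2 and 3 stood apart most plainly in 3 of these genes, chosen after their values were seen. Dbp, an output factor driven directly by E-boxes, had 283, 84.7 and 92.7 CPM in the 3 HRC S96A hearts, against 256 to 353 CPM in the 9 others. Ciart, a repressor of the ARNTL and CLOCK pair, had 25.6, 5.02 and 4.05 CPM in HRC S96A hearts, against 20.7 to 35.8 CPM in the others. Nfil3, which represses at D-boxes, had 8.66, 16.5 and 20.4 CPM in HRC S96A hearts, against 6.79 to 13.6 CPM in the others. For Dbp, Ciart and Nfil3, HRC S96A replicate 1 thus lay within the range of the other genotypes.

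Genes of like pattern were sought by each gene's correlation over the 12 hearts with the mean of the activators minus the mean of Per1, Per2, Per3, Cry2, Nr1d1 and Nr1d2, all as z scores. Of 11249 genes searched, 10 had r above 0.8 and 21 had r below -0.8. The highest were Adam19 (0.90), Srsf6 (0.90), Col5a3 (0.88), Spon2 (0.85), Fam220a (0.85) and Srsf3 (0.83). Adam19, a membrane metalloproteinase, had 33.5, 31.3 and 28.2 CPM in compound hearts, 45.5, 74.8 and 58.0 CPM in HRC S96A hearts, 27.3, 36.2 and 19.9 CPM in MYBPC3Δ25bp hearts, and 26.1, 25.6 and 27.5 CPM in nontransgenic hearts. The lowest were Ttc23 (-0.94), Dyrk1b (-0.88), Bbs9 (-0.88), Usp2 (-0.88), Degs1 (-0.87) and Akt1 (-0.87). Ttc23 had 9.01, 8.58 and 10.8 CPM in compound hearts, 8.47, 7.28 and 6.32 CPM in HRC S96A hearts, 9.96, 8.48 and 11.2 CPM in MYBPC3Δ25bp hearts, and 9.34, 9.61 and 11.9 CPM in nontransgenic hearts. It was lowest in HRC S96A replicates 2 and 3 and highest in replicate 3 of nontransgenic and MYBPC3Δ25bp hearts.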

How the data were processed

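Heart RNA was sequenced in 12 libraries, 3 per genotype, taken as separate animals; the p-values measure the spread between them. The authors deposited expected counts (estimated counts of reads per gene) and TPM, with log2 ratios and q-values per comparison. GRCm38.p6, HISAT, Bowtie2 and DESeq2 are listed in the submitters' processing notes, while the counting tool, its strand setting and the annotation are not stated. Expected counts were rounded to whole numbers (94.3% of values were already whole), and 1 line that names no gene was left out. Genes were filtered with filterByExpr, scaled by TMM and tested with edgeR 4.0.16 (quasi-likelihood, all 12 libraries, group and sex as terms, two-sided), with Benjamini-Hochberg adjustment over 13849 genes and a threshold of 0.05. DESeq2 1.42.0 and limma 3.58.1 were alternatives. CPM are counts per 1000000 after TMM scaling. Correlations used edgeR's log2 CPM with a prior count of 2. The scripts were tested on simulated counts.

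The members and lists were chosen with earlier results of these data known, and the tests stand as descriptions of these hearts. The genes named in each comparison are the members at an unadjusted p under 0.05, with all 10 given for HRC S96A against nontransgenic hearts. Libraries held 15615182 to 20581197 counts, and counting error weighs most on Arntl and Npas2, the members of lowest level.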

Additional observations from a re-analysis of the deposited data

Results flagged for a closer look

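For Cry2 the fitted difference linked to the HRC variant was not the same in hearts with and without the deletion, a result called in DESeq2 only. The interaction was 0.83 on the log2 scale in DESeq2, with an adjusted p of 0.00018, and 0.81 in edgeR, where the adjusted p was 0.336 and no gene passed. Over the alternatives tried the adjusted p ranged from 0.00018 to 1.00, and the difference from 0.76 without MYBPC3Δ25bp replicate 2 to 0.90 without MYBPC3Δ25bp replicate 1. Cry2 had 55.4, 55.5 and 60.5 CPM in compound hearts and 38.1, 31.6 and 47.6 CPM in MYBPC3Δ25bp hearts, and 45.02, 42.6 and 43.8 CPM in HRC S96A hearts and 46.0, 47.7 and 64.6 CPM in nontransgenic hearts. Every compound heart was above the MYBPC3Δ25bp hearts, as for 11.5% of all genes, and every HRC S96A heart below the nontransgenic hearts, as for 3.76%. Compound and HRC S96A hearts were all female, those of the other groups mostly male. Compound over MYBPC3Δ25bp was 0.26 with the sex term (edgeR unadjusted p = 0.072) and 0.55 without it. HRC S96A over nontransgenic was -0.55 with it and -0.27 without it (edgeR unadjusted p = 0.115). The edgeR interaction was 0.81 with and without the sex term.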

How the results depend on the processing

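Of 549 alternative values of the 24 named member differences, 542 kept their direction and side of the threshold of adjusted p under 0.05. As none of the 24 passed in the main fit, this means only that they kept their sign and stayed uncalled, whatever their size. Among the 542 are Per1 in compound against MYBPC3Δ25bp hearts, from -0.90 to -0.08 with the atrial level as a term. Cry1 in HRC S96A against nontransgenic hearts, from -0.46 to -0.05 without the sex term, is another. DESeq2 gave no adjusted p for the Arntl interaction, which is not among them. In 6 the threshold was newly passed, 5 of them in DESeq2 and 1 for Arntl in HRC S96A against nontransgenic hearts without compound replicate 3 (adjusted p = 0.0454). The reversed one was Nr1d1 in that comparison, at -0.0458 with a replicate block. Depth limits Arntl and Npas2 most, the 2 members of lowest level. Females alone leave 1 nontransgenic and 1 MYBPC3Δ25bp heart, and lone hearts are assumed to vary like other groups. Fits of only the groups compared were not run for the interaction or for any group difference. The causes below were not tested.

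Genes called over all 13849 numbered 0 in every comparison in edgeR. DESeq2 called 76 for MYBPC3Δ25bp against nontransgenic, 25 for HRC S96A against nontransgenic, 38 for compound against nontransgenic, 6 for compound against MYBPC3Δ25bp, 43 for compound against HRC S96A, 50 for the interaction and 108 for any group difference. Without HRC S96A replicates 2 and 3 together, edgeR called 1 for HRC S96A against nontransgenic, 37 for compound against nontransgenic, 17 for compound against MYBPC3Δ25bp, 308 for compound against HRC S96A, 189 for the interaction and 69 for any group difference. With only the groups compared it called 1 for MYBPC3Δ25bp against nontransgenic, 15 for compound against nontransgenic and 57 for compound against MYBPC3Δ25bp. Leaving out each library in turn gave 0 to 0 calls for MYBPC3Δ25bp against nontransgenic, 0 to 8 for HRC S96A against nontransgenic, 0 to 3 for compound against nontransgenic, 0 to 0 for compound against MYBPC3Δ25bp, 0 to 13 for compound against HRC S96A, 0 to 5 for the interaction and 0 to 4 for any difference.

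Members at an unadjusted p under 0.05 are counted next, but the number of all genes at that level also moved between settings. Without the sex term it went from 863 to 701 of 13849 for HRC S96A against nontransgenic. It went from 881 to 1229 for compound against nontransgenic and from 794 to 2004 for compound against MYBPC3Δ25bp. With the atrial level as a term these last 2 were 548 and 330, and the interaction went from 1183 to 980. Below, numbers marked as genes give all genes at that level in the same setting. Fits that leave 1 heart in a group are not counted. With a library left out, 14023 to 14136 genes were tested. For MYBPC3Δ25bp against nontransgenic (1) the count of members was 3 with only the groups compared (818 of 13501 genes). It was 1 to 2 with a library left out (667 to 1465 genes). For HRC S96A against nontransgenic (7) it was 4 without the sex term (701 genes) and 4 to 8 with a library left out (508 to 1246 genes). For compound against nontransgenic (5) it was 1 without the sex term, 1 with the atrial level as a term, 2 in females, 2 with only the groups compared, 3 in limma-voom, 3 without nontransgenic replicate 1 and MYBPC3Δ25bp replicate 2, and 2 to 7 with a library left out. For compound against MYBPC3Δ25bp (2) it was 1 without the sex term (2004 genes) and 1 with the atrial level (330 genes). It was 0 with only the groups compared (973 of 13334 genes) and 0 to 5 with a library left out (388 to 1177 genes). For compound against HRC S96A (4) it was 3 to 5 with a library left out (538 to 1264 genes). For the interaction (2) it was 4 in DESeq2 (1327 genes), 4 with RLE scaling (1189 genes) and 6 with the atrial level (980 genes). It was 2 to 5 with a library left out (775 to 1555 genes). For any group difference (7) it was 4 to 9 with a library left out (669 to 1444 genes).

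Over all tested genes, same-numbered hearts did not as a rule deviate together. The r of their deviations from group means ran from -0.24 to 0.32 over 18 pairs, and 5 were over 0.1. Only 2 of 12 hearts correlated best with their own number. Nontransgenic replicate 3 had r = 0.32 with MYBPC3Δ25bp replicate 3 and 0.07 with compound replicate 3, and the latter 2 had 0.12. HRC S96A replicate 3 had -0.05, 0.14 and -0.11 with the nontransgenic, MYBPC3Δ25bp and compound ones. An r over all genes cannot show whether the clock genes deviated together, which was not tested. The numbers were therefore not taken as pairs, although replicate 3 of 3 groups had low Arntl and high Per2. With the replicate block edgeR called 1 gene for the interaction, and the members at an unadjusted p under 0.05 numbered 2 for MYBPC3Δ25bp against nontransgenic, 4 for HRC S96A against nontransgenic, 2 for compound against nontransgenic, 1 for compound against MYBPC3Δ25bp and 4 for any group difference. Of all 13849 genes, 981, 597, 870, 946 and 872 were at that level, in the same order.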
